A study of Mus musculus with 16 samples.

Results

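The genes described here encode the machinery that carries nucleus-encoded proteins into mitochondria and folds them there. They were chosen by name from the protein-coding genes of GENCODE M21, with earlier results of these data known. The symbol pattern (Timm or Tomm followed by a digit) gave 25 genes, and 12 more were named (Timmdc1, Pam16, Dnajc19, Grpel1, Grpel2, Hspa9, Hspd1, Hspe1, Chchd4, Samm50, Mtx1 and Mtx2). This made 37 of the 22196 genes listed. Of these, 35 passed the filter on low counts and were tested. The other members were Timm8a2, with 9 counts over all 16 libraries, and Tomm20l, with 1.

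RNA came from whole inguinal mammary gland of mice. The study's title places the animals in mid-lactation, and the age label gives postnatal day 16. That day may count from the birth of the litter and not of the animal sampled, which the labels do not say. Diet was crossed with treatment in 4 groups of 4 libraries, which are HFD metformin, HFD control, NCD metformin and NCD control. HFD is a high fat diet fed during lactation, and the labels do not expand NCD. Metformin is a glucose-lowering drug known to inhibit respiratory complex I. The labels name no genotype, strain, dose or length of treatment, and do not tie libraries to animals. P-values therefore speak of the spread between libraries only, which may be technical. In whole glands, fewer cells of a type and less RNA per cell cannot be told apart.

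As background, most mitochondrial proteins are made in the cytosol and enter through the TOM complex of the outer membrane. From there the SAM complex inserts beta-barrel proteins into the outer membrane, and small TIM chaperones escort hydrophobic precursors across the intermembrane space. The TIM23 complex threads precursors with a presequence through the inner membrane, where the motor around mitochondrial Hsp70 pulls them in, and the TIM22 complex inserts metabolite carriers. In the matrix the Hsp60 and Hsp10 chaperonin folds imported proteins. The lactating epithelium is a tissue of high mitochondrial activity, as milk fat, lactose and protein synthesis draw on mitochondrial citrate and ATP.

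Totals over genes ranged from 8649316 counts in HFD control 4 to 39156617 in NCD metformin 4, with a median of 28944266. Markers of the secretory epithelium summed to between 355916 and 567655 CPM (counts scaled to library size) per library, and all 8 had counts, Elf5 in 14 of 16 libraries. NCD control 3 stood apart, with 3671 CPM summed over 12 skeletal muscle markers, against at most 139 CPM in any other library. Without it, the number of members called higher with metformin on NCD was 7. The 37 members took 0.0552 ± 0.00448% of counts in HFD metformin, 0.0465 ± 0.00536% in HFD control, 0.0728 ± 0.00508% in NCD metformin and 0.0554 ± 0.00297% in NCD control (SD, n = 4).

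The regions around the starts of 4 members are shown because these genes carried the results below. Hspe1 and Hspd1 lie head to head and were both higher with metformin over the 2 diets, while Timm8b, Mtx1 and Samm50 had the lowest p-values with metformin on NCD. Each runs 5′ to 3′ on its gene's strand, from 250 bases before to 50 bases after the RefSeq start on GRCm38.p6. Capitals mark a heat shock element of 4 units in Hspe1, CCGGAAG (the core bound by ETS-family factors, read on either strand) in Timm8b and Mtx1, and the motif of nuclear respiratory factor 1 in Timm8b. Samm50 held no match to the motifs searched.
Hspe1: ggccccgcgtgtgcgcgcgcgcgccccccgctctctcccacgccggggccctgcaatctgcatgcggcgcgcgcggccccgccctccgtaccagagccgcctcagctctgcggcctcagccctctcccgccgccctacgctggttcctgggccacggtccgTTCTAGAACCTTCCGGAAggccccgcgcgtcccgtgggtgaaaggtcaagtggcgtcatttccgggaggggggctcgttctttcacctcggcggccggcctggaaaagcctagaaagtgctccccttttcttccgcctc
Timm8b: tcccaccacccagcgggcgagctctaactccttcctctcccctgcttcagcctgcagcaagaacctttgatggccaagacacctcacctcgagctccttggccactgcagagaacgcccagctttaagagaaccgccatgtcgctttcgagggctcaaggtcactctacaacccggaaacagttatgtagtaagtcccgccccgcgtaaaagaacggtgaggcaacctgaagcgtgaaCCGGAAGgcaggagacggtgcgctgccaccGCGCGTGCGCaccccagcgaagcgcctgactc
Mtx1: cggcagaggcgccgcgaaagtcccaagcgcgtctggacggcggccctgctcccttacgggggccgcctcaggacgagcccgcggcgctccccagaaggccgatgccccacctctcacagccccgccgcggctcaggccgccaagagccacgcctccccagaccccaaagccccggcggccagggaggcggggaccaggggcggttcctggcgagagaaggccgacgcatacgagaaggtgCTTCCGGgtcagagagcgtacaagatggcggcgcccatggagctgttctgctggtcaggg
Samm50: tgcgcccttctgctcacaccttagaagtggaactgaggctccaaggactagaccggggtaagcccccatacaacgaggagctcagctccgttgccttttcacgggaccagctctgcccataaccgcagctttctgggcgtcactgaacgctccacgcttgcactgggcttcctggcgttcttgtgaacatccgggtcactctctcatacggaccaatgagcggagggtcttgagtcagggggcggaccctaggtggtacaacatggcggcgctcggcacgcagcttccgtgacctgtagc

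The Hspe1 window lies at chr1:55087898-55088197 on the plus strand, with the start at 55088148. The element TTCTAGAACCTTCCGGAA runs from -89 to -72, with the start counted as 0. Both strands of 32851 windows in all were searched for TTCNNGAANNTTCNNGAA, and 5 (0.0152%) held it, those of Hspe1 and Hspd1 among them. An Hspd1 window, at chr1:55087883-55088182 on the minus strand with the start at 55087932, covers 285 of the same 300 bases on the opposite strand, with 216 bases between the starts. Another Hspd1 window, with its start at 55088243, shares 4 bases with that of Hspe1 and does not hold the element. The windows of Timm8b (chr9:50603651-50603950, plus), Mtx1 (chr3:89213858-89214157, minus) and Samm50 (chr15:84191990-84192289, plus) stand alone. In Timm8b, CCGGAAG runs from -12 to -6 and GCGCGTGCGC, read as GCGCANGCGC on the other strand, from 18 to 27. In Mtx1 the reverse complement CTTCCGG runs from -10 to -4.

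Windows were found for 32 members, 35 in all. CCGGAAG was held by 16 of them (15 members), against 8.86% of all windows. GCGCANGCGC was held by 5, against 4.6% of all windows, and the heat shock element of 3 units, TTCNNGAANNTTC, by 3 (Hspd1, Hspe1 and Timm9), against 0.603%. The E-box CACGTG was held by 6, against 7.15%, and TGATGNAA, an element bound by CHOP and ATF4, by none, against 3.97%. In Hspe1 CCGGAAG matches on both strands, each time overlapping the third and the last unit of the element. A match is a description of the letters, and no binding was measured.

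Levels per length are in TPM, which scales counts by transcript length and library size, averaged over the 16 libraries. The 5 highest were Tomm6 (163 TPM) and Tomm5 (131 TPM), small subunits of the TOM complex, Timm8b (91.8 TPM), Tomm7 (71.0 TPM) and Timm13 (65.6 TPM). These 5 coding sequences are very short, with mean effective lengths of 33.5, 9.51, 43.8, 9.0 and 60.8 bases, so their TPM is uncertain, and scaled from CPM Tomm5 was at 65.1. In all, 11 tested members had an effective length under 100 bases. Among longer members Samm50, the beta-barrel core of SAM, was highest at 38.0 TPM. The 5 lowest were the TIM23 subunit Timm21 (1.54 TPM), Tomm34 (2.35 TPM), Grpel2, a nucleotide exchange factor of the motor (3.15 TPM), Tomm70a, a receptor for carrier precursors (3.81 TPM), and Timmdc1, an assembly factor of complex I (4.15 TPM).

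**Figure D1:**
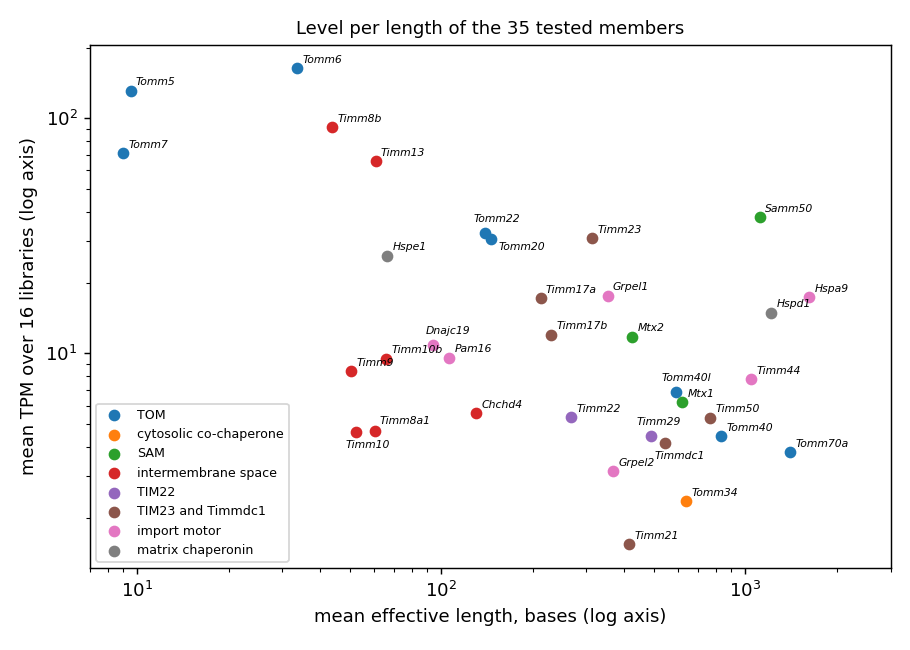
Mean level per length (TPM over 16 libraries, vertical log axis) against mean effective length (bases, horizontal log axis) of the 35 tested members, coloured by machine. The 5 highest, from Tomm6 at 163 TPM to Timm13 at 65.6 TPM, all have effective lengths under 100 bases, and Samm50 leads the longer genes at 38.0 TPM.

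On NCD, metformin was accompanied by higher transcripts of 7 of the 35 tested members, in 6 of the machines, and none was called lower. The 7 were Samm50 and Mtx1 of SAM, the pore Tomm40, the small TIM chaperone Timm8b, the TIM23 receptor Timm50, the motor Hsp70 Hspa9 and the chaperonin Hspd1, with rises of 33.9% (Timm50) to 74.0% (Samm50). A gene is called at an adjusted p under 0.05 in edgeR's quasi-likelihood test over 12506 genes, and 4.01% of all tested genes were called higher. Of the 35, 33 had positive log2 fold changes, against 49.7% of all genes, and their median was 0.33, against 0.00.

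**Figure D2:**
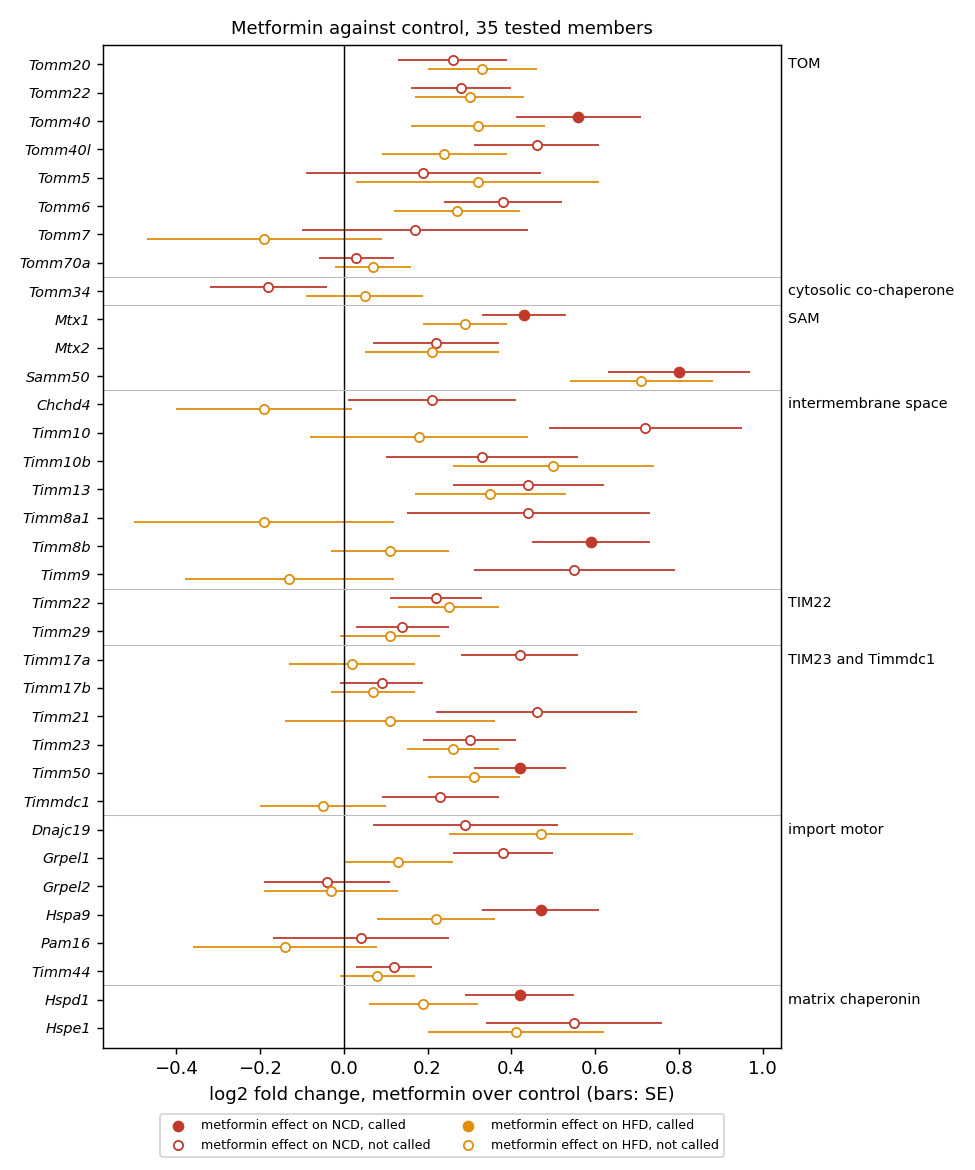
Log2 fold change of metformin over control (points; bars are SE) on NCD and on HFD for the 35 tested members, ordered by machine; filled points are called. On NCD 33 of 35 points lie right of 0 and 7 are filled, and on HFD 28 lie right of 0 and none is filled.

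In the SAM complex, Samm50 had 163, 193, 192 and 187 CPM in the NCD metformin libraries, against 101, 110, 105 and 106 CPM in NCD control. The groups did not overlap, and the fold change was 0.80 ± 0.17 (SE) on the log2 scale (adjusted p = 0.0152, edgeR). Mtx1, metaxin 1, which works with Samm50, had 11.2, 15.0, 12.9 and 12.1 CPM in NCD metformin, against 9.55, 8.94, 9.55 and 10 CPM in NCD control. Again every metformin library lay above every control, with a log2 fold change of 0.43 ± 0.10 (adjusted p = 0.0191, edgeR). Its gene overlaps Thbs3, and whether their coding sequences share reads was not examined. Mtx2, its partner, averaged 17.7 ± 1.51 CPM in NCD metformin and 15.2 ± 1.45 CPM in NCD control (SD, n = 4), not called.

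At the entry gate, Tomm40, the channel of TOM, had 16.4, 17.5, 17.1 and 11.1 CPM in NCD metformin, against 10.2, 9.92, 11 and 10.8 CPM in NCD control. NCD metformin 4 lay just above the highest control and far below the others of its group (log2 fold change 0.56 ± 0.15, adjusted p = 0.0320, edgeR). The receptor Tomm20, which binds presequences, averaged 16.1 ± 1.59 CPM in NCD metformin and 13.4 ± 0.79 CPM in NCD control (SD, n = 4), not called. Tomm70a averaged 18.2 ± 1.48 CPM in NCD metformin and 17.9 ± 0.662 CPM in NCD control (SD, n = 4), a log2 fold change of 0.03 ± 0.09. All 8 tested TOM members were positive, 1 was called, and their median was 0.27. Tomm34, a cytosolic co-chaperone caught by the symbol pattern, had -0.18 ± 0.14, not called.

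In the intermembrane space, Timm8b, which escorts precursors with Timm13, had 15.5, 17.5, 13.0 and 18.5 CPM in NCD metformin, against 11.1, 10.2, 11.5 and 10.1 CPM in NCD control. The groups did not overlap, with a log2 fold change of 0.59 ± 0.14 (adjusted p = 0.0221, edgeR). It overlaps Nkapd1 and is short, and with the length and GC trend removed it had 0.40 (adjusted p = 0.0721, edgeR). Timm10, which forms a chaperone with Timm9, had 1.3, 1.14, 0.843 and 1.41 CPM in NCD metformin, against 0.837, 0.618, 0.730 and 0.656 CPM in NCD control. These did not overlap but the gene missed the threshold (0.72 ± 0.23, adjusted p = 0.0587, edgeR). Chchd4, the oxidoreductase that folds the small TIM proteins, had 0.21 ± 0.20. All 7 tested members of this compartment were positive, with a median of 0.44.

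At the inner membrane, Timm50, the receptor of TIM23, had 14.5, 15.7, 16.1 and 16.9 CPM in NCD metformin, against 12.1, 11.8, 13.3 and 10 CPM in NCD control. Every metformin library lay above every control (log2 fold change 0.42 ± 0.11, adjusted p = 0.0293, edgeR). The channel Timm23 had 28.1, 29.9, 30.8 and 37.8 CPM in NCD metformin, against 22.8, 25.1, 26.8 and 28.0 CPM in NCD control. The groups met but did not overlap, and it was not called (0.30 ± 0.11, adjusted p = 0.0900). Of the paralogs that make up its partner subunit, and that may share reads, Timm17a had 0.42 ± 0.14 (adjusted p = 0.0725) and Timm17b 0.09 ± 0.10 (adjusted p = 0.592, edgeR). The carrier translocase members Timm22 and Timm29 had 0.22 and 0.14, not called.

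In the motor, Hspa9, mitochondrial Hsp70, had 119, 101, 109 and 112 CPM in NCD metformin, against 63.1, 72.5, 96.1 and 86.5 CPM in NCD control. The groups did not overlap (log2 fold change 0.47 ± 0.14, adjusted p = 0.0473, edgeR). Timm44, which tethers it to the channel, had 0.12 ± 0.09, and its exchange factors Grpel1 and Grpel2 had 0.38 ± 0.12 (adjusted p = 0.0627) and -0.04 ± 0.15 (adjusted p = 0.924, edgeR). Of the 6 motor members, 5 were positive and 1 was called. In the matrix, Hspd1, the Hsp60 chaperonin, had 62.0, 66.5, 77.8 and 78.7 CPM in NCD metformin, against 44.1, 52.6, 60.1 and 55.6 CPM in NCD control. It did not overlap either (0.42 ± 0.13, adjusted p = 0.0463, edgeR).

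In all, 17 of the 35 tested members did not overlap between the groups and were higher, against 8.73% of all genes, and 17 had an unadjusted p under 0.05, against 27.9%. The count of 7 rested on single libraries. It was 0 without NCD metformin 2, 1 without NCD control 2, 2 without NCD control 1, 3 without NCD control 4, NCD metformin 3 or NCD metformin 4, and 4 when scaled by library size only. Over all genes 1255 were called in either direction, against 180 without NCD metformin 2, 564 without NCD control 2 and 384 without NCD control 1. That number was 925 without NCD control 4, 511 without NCD metformin 3, 1147 without NCD metformin 4 and 990 with library size only. In the last 2 settings calls thus fell more among the members than over all genes. The median over the members was 0.33 without NCD metformin 2, with 34 positive.

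On HFD, no member was called with metformin, where 0.168% of all genes (21) were called, while 28 of 35 were positive, against 50.5% of all genes, with a median of 0.19, against 0.00. By unadjusted p, 7 members were under 0.05, against 12.8% of all genes. Samm50 had 158, 197, 170 and 106 CPM in HFD metformin, against 103, 115, 100 and 65.6 CPM in HFD control. HFD metformin 4 fell within the control range, and the log2 fold change was 0.71 ± 0.17 (adjusted p = 0.114, edgeR). It was called without that library (0.86, adjusted p = 0.0258, edgeR), where 44 of all genes were called. DESeq2 also called it (adjusted p = 0.00923, DESeq2), along with more of all genes, 158 in total. Mtx1 had 11.2, 12.9, 12.5 and 11.3 CPM in HFD metformin, against 10.5, 9.56, 9.14 and 10 CPM in HFD control. It did not overlap (0.29 ± 0.10, adjusted p = 0.237, edgeR), nor did the TOM receptor Tomm22 (0.30 ± 0.13), and 3.72% of all genes lay apart in that direction.

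Other core members did not pass the test on HFD either. Log2 fold changes were 0.33 ± 0.13 for Tomm20, 0.32 ± 0.16 for Tomm40, 0.31 ± 0.11 for Timm50, 0.26 ± 0.11 for Timm23 and 0.22 ± 0.14 for Hspa9, none called. Hspd1 had 0.19 ± 0.13 and Hspe1, its Hsp10 partner, 0.41 ± 0.21. The members of the intermembrane space were mixed, with 4 of 7 positive and a median of 0.11. HFD control 4, the shallowest library, was the lowest of its group for Samm50, Tomm20, Tomm40, Timm23, Hspa9, Hspd1 and Hspe1. Without it the median of the members was 0.11, and with library size only it was 0.12, against -0.07 over all genes.

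Averaged over the 2 diets, metformin groups had higher transcripts of 12 of the 35 tested members and lower of none, where 5.82% of all genes were called higher. Samm50 led with a log2 fold change of 0.76 ± 0.12 (adjusted p = 0.00222, edgeR), or 68.8% higher. It was followed by Mtx1 (0.36 ± 0.07, adjusted p = 0.00682), Timm50 (0.37 ± 0.08, adjusted p = 0.010) and Tomm40 (0.44 ± 0.11, adjusted p = 0.0198, edgeR). These 4 stayed called under each of 23 alternatives. The others were Timm23 (0.28), Timm8b (0.35), Hspa9 (0.35), Hspd1 (0.31), Tomm40l (0.35), Tomm22 (0.29), Hspe1 (0.48) and Tomm6 (0.33), with adjusted p from 0.0343 to 0.0496 (edgeR), and each was lost under 10 to 18 of the 23. Tomm20 (adjusted p = 0.0507) and Timm13 (adjusted p = 0.0518, edgeR) lay just outside.

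The count was 4 without any of NCD control 1, NCD metformin 2, NCD metformin 4, HFD control 3, HFD control 4, HFD metformin 2 or HFD metformin 3, 5 without NCD control 2 or NCD control 4, and 7 without NCD metformin 1. Without each of these libraries 711 to 1331 of all genes were called, against 1424. The count was also 4 with library size only, 5 with no filter on low counts and 7 with the length and GC trend removed, where Timm8b had 0.15, Tomm22 0.17 and Tomm6 0.13. In these settings 1254, 1064 and 1193 of all genes were called, a smaller loss than among the members. In counts rebuilt from TPM Tomm40l, a paralog of Tomm40 that may share its reads, had 0.63. Of the 35, 31 were positive, against 48.8% of all genes, with a median of 0.28, against -0.01. With the length and GC trend removed 28 were positive, with a median of 0.17, against 0.03. Mtx1 alone did not overlap between the 8 metformin and 8 control libraries, as did 0.784% of all genes.

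**Figure D3:**
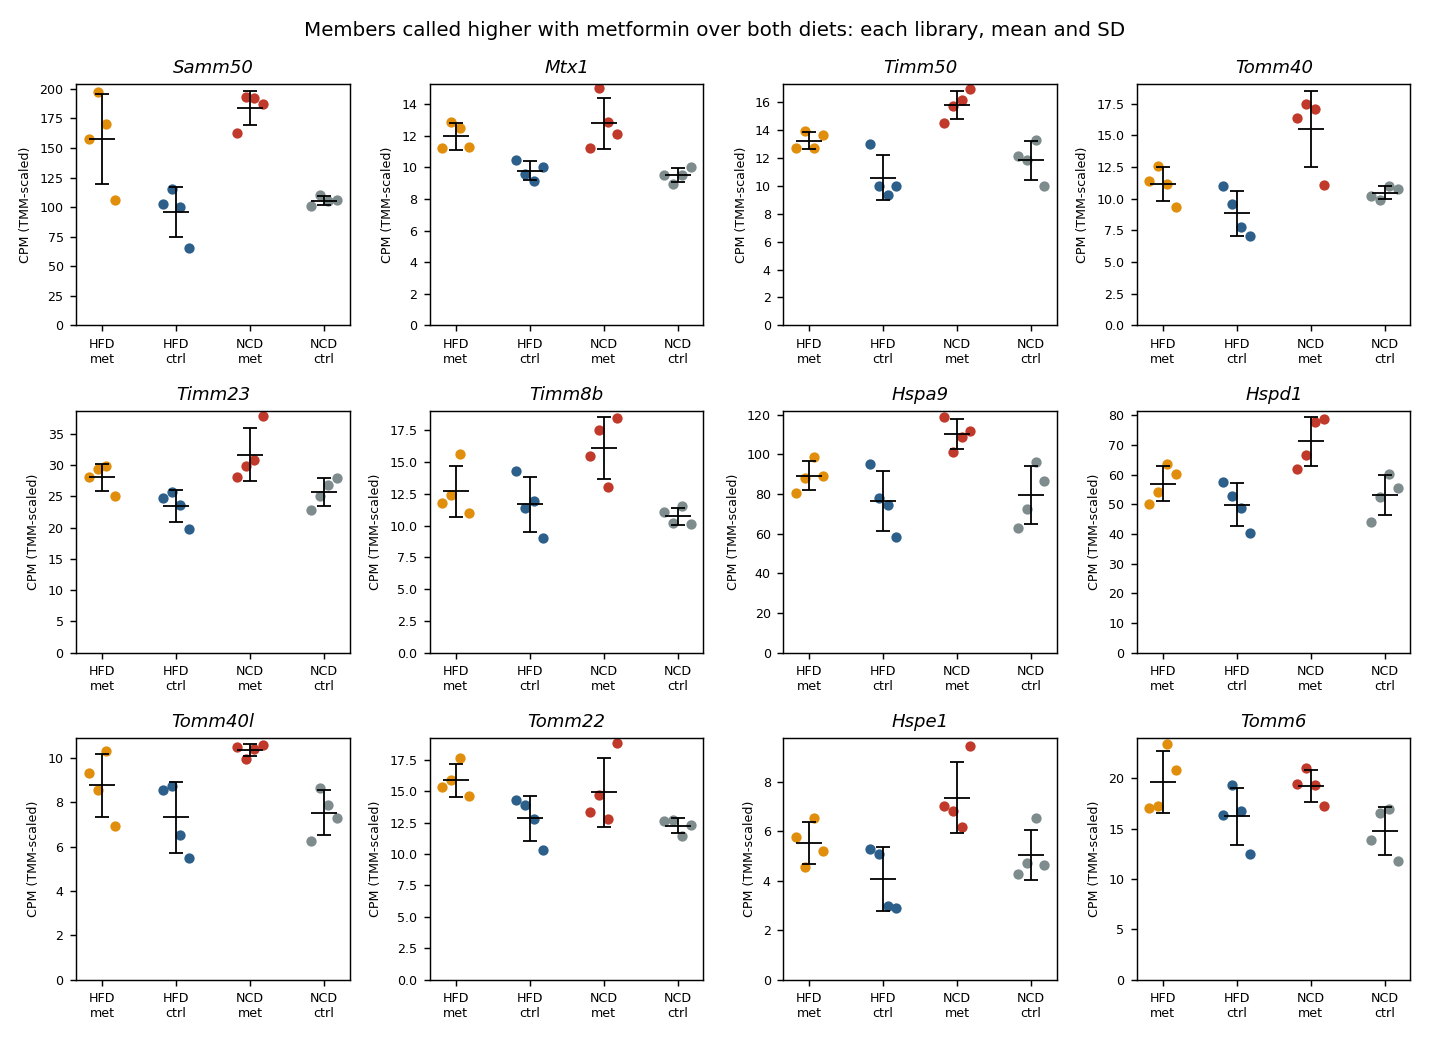
Level (CPM after TMM scaling, vertical axis from 0) of the 12 members called higher with metformin over both diets, for each library (points) with the group mean and SD (bars), in HFD metformin, HFD control, NCD metformin and NCD control. Samm50 reaches 163 to 193 CPM in NCD metformin, against 101 to 110 CPM in NCD control, and HFD control 4 is its lowest library at 65.6 CPM.

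Among the 8 further genes, the central receptor Tomm22 and the small subunit Tomm6 belong to TOM. Tomm22 had 15.3, 15.9, 17.6 and 14.6 CPM in HFD metformin, against 14.3, 13.9, 12.8 and 10.3 CPM in HFD control. It had 13.3, 14.7, 12.8 and 18.8 CPM in NCD metformin, against 12.6, 12.7, 11.4 and 12.3 CPM in NCD control. Metformin libraries were the higher on both diets, by a narrow margin in each. Tomm6, which overlaps Gm21981 and Usp49, averaged 19.6 ± 3.07 CPM in HFD metformin and 16.2 ± 2.78 CPM in HFD control, with 19.2 ± 1.56 CPM in NCD metformin and 14.8 ± 2.37 CPM in NCD control (SD, n = 4).

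Both genes of the chaperonin pair were called. Hspe1 had 5.77, 4.57, 6.53 and 5.20 CPM in HFD metformin, against 5.28, 5.06, 2.97 and 2.90 CPM in HFD control. It had 7.01, 6.82, 6.15 and 9.43 CPM in NCD metformin, against 4.27, 4.72, 6.54 and 4.65 CPM in NCD control. On both diets 1 or more control libraries lay within the metformin range. The ratio of Hspe1 to Hspd1 in TPM was 1.78 ± 0.259 in HFD metformin and 1.47 ± 0.319 in HFD control. It was 1.92 ± 0.35 in NCD metformin and 1.71 ± 0.189 in NCD control (SD, n = 4), so the group ranges overlapped. The 2 genes overlap in the annotation, while only coding sequence is measured here. Whether their coding sequences share reads was not examined, and strand options are not stated.

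A member score, the mean log2 CPM of the 35 tested members, summarised each library. It was 2.87, 2.92, 3.08 and 2.97 in HFD metformin, against 2.95, 2.92, 2.70 and 2.47 in HFD control. It was 3.13, 3.17, 3.10 and 3.26 in NCD metformin, against 2.81, 2.89, 2.92 and 2.78 in NCD control. The NCD groups lay apart and the HFD groups overlapped, with HFD control 4 lowest. Without Samm50 the mean score was 2.83 in HFD metformin and 2.65 in HFD control, and 3.04 in NCD metformin and 2.74 in NCD control.

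Transcripts of the mitochondrial genome were also higher with metformin in group mean on both diets. They took 2.80 ± 0.188% of counts in HFD metformin and 2.18 ± 0.18% in HFD control, and 3.51 ± 0.19% in NCD metformin and 2.39 ± 0.231% in NCD control (SD, n = 4). The groups did not overlap on either diet. Within each HFD group the library with the highest member score had the lowest share. Within each NCD group the library with the lowest score also had the lowest share. All 6 macrophage markers had counts, and summed to 66.8 to 107 CPM in HFD metformin, against 72.8 to 92.4 CPM in HFD control, and to 49.3 to 64.1 CPM in NCD metformin, against 75.5 to 116 CPM in NCD control. They lay apart on NCD and overlapped on HFD. The 7 adipocyte markers summed to 236 to 590 CPM in HFD metformin, against 211 to 327 CPM in HFD control, and to 368 to 852 CPM in NCD metformin, against 169 to 991 CPM in NCD control. The 5 endothelial markers summed to 48.5 to 55.8 CPM in HFD metformin, against 53.5 to 65.1 CPM in HFD control, and to 55.1 to 95.7 CPM in NCD metformin, against 44.0 to 62.2 CPM in NCD control. The adipocyte and endothelial ranges overlapped on both diets, and no marker of these lists was at 0. For adipocyte markers on NCD the overlap came from NCD control 3 alone (991 CPM), the library with high muscle markers. The other NCD controls had 169, 206 and 229 CPM, below every NCD metformin library. The part of these cell types in the result was not tested.

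**Figure D4:**
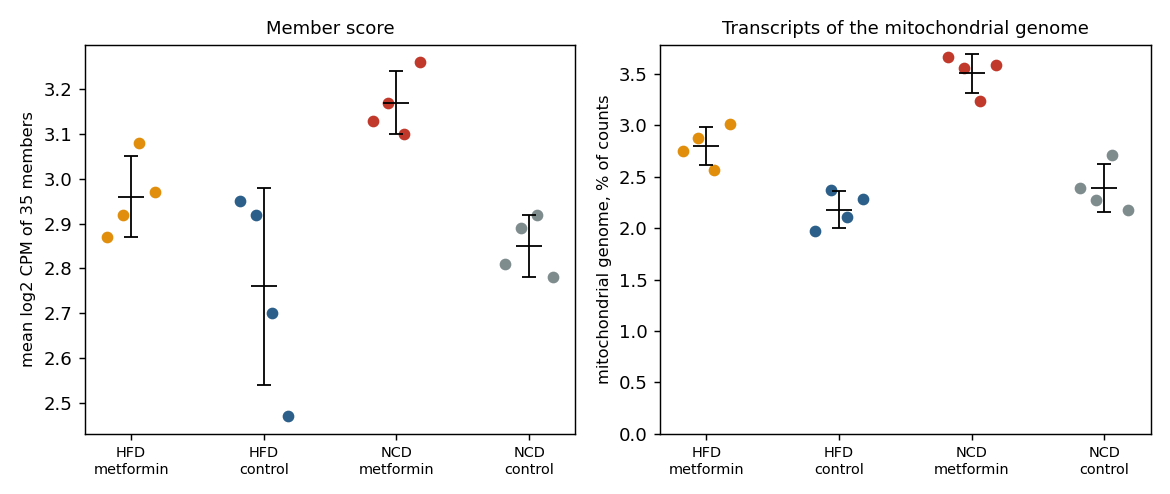
Member score (mean log2 CPM of 35 members, left) and share of counts from the mitochondrial genome (percent, right) for each library (points) with group mean and SD (bars). On NCD the metformin libraries score 3.10 to 3.26, all above the controls at 2.78 to 2.92, and on HFD the ranges overlap.

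No metformin effect on a member was shown to differ between the diets. In edgeR's test of that difference 0 of 12506 genes passed (0.0%), with 1243 (9.94%) at an unadjusted p under 0.05, while DESeq2 called 22 genes and no member. The difference, HFD minus NCD, passed an unadjusted 0.05 for Timm8b alone, at -0.48 ± 0.20 (adjusted p = 0.449, edgeR). Its median was -0.09 over the 3 members of SAM and -0.48 over the 7 of the intermembrane space. It was -0.05 for TOM, 0.00 for TIM22, -0.20 for TIM23 and Timmdc1, -0.11 for the motor and -0.18 for the chaperonin. In the intermembrane space the low-count genes Timm9, Timm10 and Timm8a1 had SE of 0.34, 0.35 and 0.42. Of the 35 members 9 were positive, against 51.7% of all genes, with a median of -0.11, against 0.01. That median was -0.06 without HFD control 1 and -0.07 without NCD metformin 4. It was -0.21 without HFD control 4, -0.19 without HFD metformin 3, and -0.17 without HFD control 3 or NCD control 3.

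No member was called for diet in the edgeR fit over all 16 libraries with TMM scaling. With metformin, HFD over NCD was positive for 6 of 35 members, against 49.5% of all genes, with a median of -0.19, against 0.00, and 2.36% of all genes were called. The nearest was Timm10, with 0.692, 0.579, 0.537 and 0.691 CPM in HFD metformin, against 1.3, 1.14, 0.843 and 1.41 CPM in NCD metformin. The groups lay apart, at -0.91 ± 0.24 on the log2 scale (adjusted p = 0.0556, edgeR). Timm17a, Timm50, Timm9 and Hspa9 also lay apart and lower, 5 members in all, against 4.01% of all genes. Tomm40 had -0.47 ± 0.15, Hspd1 -0.32 ± 0.13 and Samm50 -0.22 ± 0.17, none called. Without NCD metformin 4 Tomm40 was called lower (-0.61, adjusted p = 0.0326, edgeR). By unadjusted p 9 members were under 0.05, against 19.2% of all genes. Secretory epithelium markers summed to 430775 to 567655 CPM in HFD metformin, against 390191 to 420000 CPM in NCD metformin. Macrophage markers summed to 66.8 to 107 CPM in HFD metformin, against 49.3 to 64.1 CPM in NCD metformin. Both lists lay apart, while the other cell type lists overlapped. Their part in the diet values was not tested.

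Without metformin, 0.064% of all genes (8) were called between HFD and NCD. Of the 35 members 12 were positive, against 50.5% of all genes, and the median was -0.05. Leaving out HFD control 4 turned that median to 0.01, with 20 positive. It became -0.02 when HFD control 3 was left out and -0.03 when NCD control 3 was. It was -0.13 without HFD control 1, -0.12 without HFD control 2 or NCD control 1, and -0.09 without NCD control 4. By unadjusted p 1 was under 0.05, against 7.04%. This was Tomm70a, with 17.1, 14.8, 14.8 and 14.6 CPM in HFD control, against 17.6, 18.8, 17.2 and 17.9 CPM in NCD control. HFD control 1 came close to the NCD range, and the fold change was -0.22 ± 0.09 (adjusted p = 0.639, edgeR). Timm29 also lay apart and lower, 2 members against 2.25% of all genes. Samm50 had -0.13 ± 0.17 and Hspa9 -0.05 ± 0.14. Averaged over treatments, 5 members were positive, against 49.9% of all genes, with a median of -0.13. Of all genes 0.936% were called, and the lowest adjusted p of a member was 0.0817 (Timm10, -0.64 ± 0.17, edgeR).

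These diet values depended on the scaling. With library size only, 7 members were called lower on HFD with metformin and 15 lower averaged over treatments. Genes called in either direction then numbered 641 and 1595 of all, against 295 and 117 in the fit reported. The median of all genes then shifted by -0.16 to -0.18, and those of the members to -0.22 without metformin, -0.36 with metformin and -0.30 averaged. With the length and GC trend removed the members' medians were -0.02 without metformin (16 positive), -0.15 with metformin (9 positive) and -0.07 averaged (12 positive).

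**Figure D5:**
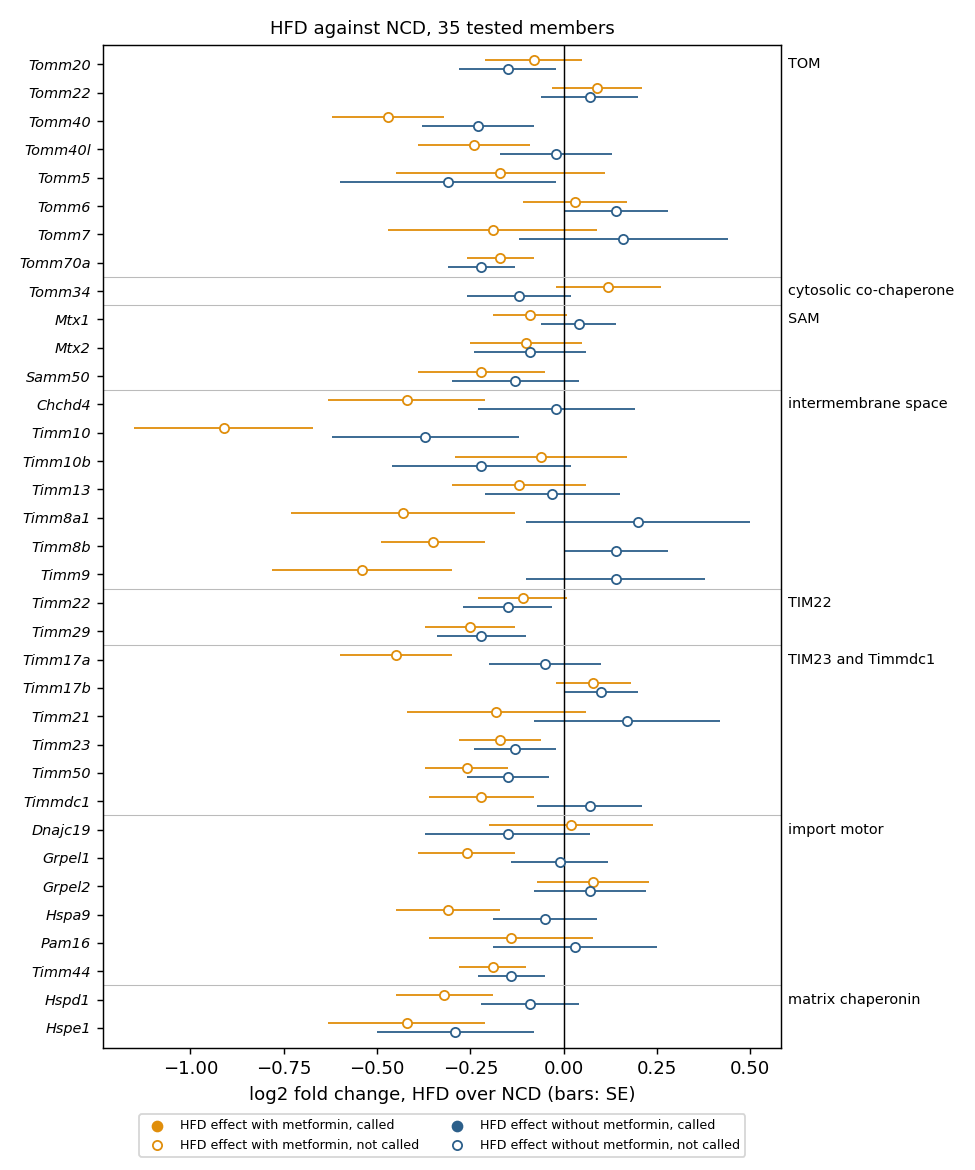
Log2 fold change of HFD over NCD (points; bars are SE) with and without metformin for the 35 tested members, ordered by machine; none is called. With metformin 29 of 35 points lie left of 0, the lowest being Timm10 at -0.91.

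Of other genes that serve import, processing, quality control and cristae, 47 were tested from 6 lists. The lists were chosen with earlier results of these data known, so their counts are descriptive and do not test an excess. With metformin on NCD 13 were called higher, where 4.01% of all genes were, and 1 lower. On HFD none was called, and averaged over diets 17 were higher, against 5.82% of all genes, and none lower. Dnaja3, a J-protein partner of Hspa9, averaged 16.0 ± 2.03 CPM in NCD metformin and 11.1 ± 0.787 CPM in NCD control (log2 fold change 0.53 ± 0.10, adjusted p = 0.011, edgeR). The matrix protease Lonp1 averaged 70.5 ± 5.73 CPM in NCD metformin and 51.0 ± 2.86 CPM in NCD control (0.47 ± 0.10, adjusted p = 0.0132, edgeR). Agk, a lipid kinase that in human cells is also a subunit of TIM22, averaged 3.96 ± 0.436 CPM in NCD metformin and 2.41 ± 0.514 CPM in NCD control (SD, n = 4; 0.72 ± 0.18, adjusted p = 0.0249, edgeR).

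Of 6 tested presequence processing genes 2 rose on NCD, Pmpcb, the catalytic subunit of the processing peptidase (0.38), and Pitrm1, which degrades cleaved presequences (0.41). Of 10 proteases 4 rose, among them the inner membrane protease subunit Afg3l1 (0.37). Of 10 cristae genes 4 rose, the prohibitins Phb (0.52) and Phb2 (0.41), the MICOS subunit Apoo (0.53) and Dnajc11 (0.36). Over both diets the lowest p-values were those of Lonp1 (0.42), Phb (0.47) and Apoo (0.44). Dnajc15, a J protein of the import motor, also rose over both diets (0.44). Of 11 tested regulators of stress and biogenesis none rose. The 1 that fell on NCD, Gabpa, an ETS-family factor named after its value was seen, averaged 3.21 ± 0.289 CPM in NCD metformin and 4.70 ± 0.334 CPM in NCD control (-0.55 ± 0.16, adjusted p = 0.0387, edgeR). With metformin, Dnaja3 fell on HFD to 12.0 ± 0.661 CPM, against 16.0 ± 2.03 CPM on NCD (adjusted p = 0.0489, edgeR).

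The numbers in the library titles have a gap between 10 and 14, which may or may not mark separate handling. Below it lay 3 metformin and 4 control libraries, and above it 5 and 4. The member score differed by 0.16 below the gap and by 0.35 above it, metformin minus control. Samm50 differed by 0.70 and 0.81, Tomm40 by 0.49 and 0.47, Mtx1 by 0.36 and 0.34, and Timm50 by 0.18 and 0.56. All were higher with metformin on both sides. The named genes were picked because they were called over these same libraries, so their direction was largely fixed in advance. Diets were also split unevenly, with most NCD controls below the gap and most HFD controls above it. The sides are therefore not like for like. With a term for the gap, 5 members were called on NCD and 11 over both diets. Of all genes 1037 and 1406 were then called in either direction, against 1255 and 1424 without the term.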

How the data were processed

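The deposited tables, in Salmon's format per the file headers, hold estimated counts and TPM per transcript, with 1 table a library. The submitters' processing notes name the build GRCm38.p6, DESeq2 1.28.1 and Salmon 1.3.0. Strand and bias options are not stated there. Listed lengths were within 3 bases of the coding length for 56855 of 56855 transcripts of the same version, so reads outside coding sequence are not measured. Lengths and effective lengths are those deposited.

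Estimated counts were rounded after summing 57452 of 58204 transcripts into 22196 GENCODE M21 genes. The unmatched 752 held 0.165 to 0.218% of the counts of a library. A floor of 3 counts is 0.077 to 0.347 CPM, which covers counting error only. The quasi-likelihood test of edgeR 4.0.16 (R 4.3.3) was run in a single fit of 4 group means over 16 libraries, after filterByExpr and TMM scaling, with Benjamini-Hochberg adjustment over 12506 genes in each of 7 contrasts. Group levels are TMM-scaled CPM, and SE belongs to log2 fold changes. Scores use log2 CPM with a prior count of 2. On simulated counts for metformin on NCD, 59% of 100 genes at a log2 fold of 1 were recovered, and 85% of 100 at 2. False calls were 2.7%, with all other genes simulated as unchanged. The members' log2 fold changes on NCD were at most 0.80, so recovery at their sizes was not measured.

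Alternatives were RLE factors, library size only, DESeq2 1.42.0, no filter, only the groups compared, a term for the gap in title numbers, counts rebuilt from TPM, a length and GC trend removed (mgcv 1.9.3), and each library left out. The members and lists were chosen with earlier results of these data known. Named are all called members, 11 core members in any contrast, up to 10 called genes of the other lists by lowest p, and the 5 highest and 5 lowest levels; genes named for groups that did not overlap or values near the threshold were added after their values were seen. Promoter sequences are from RefSeq on GRCm38.p6.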

Additional observations from a re-analysis of the deposited data

Results flagged for a closer look

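In a group of 4 libraries, a library far from the other 3 relative to the group's range was looked for in 35 members and 4 groups. This picked out 7 of 140 groups, and chance alone picks out about 1 in 20. Tomm40 was low in NCD metformin 4, at 11.1 CPM, against 16.4, 17.5 and 17.1 CPM in the others. Timm21, a TIM23 subunit, was high in NCD metformin 4, at 3.33 CPM, against 1.98, 2.11 and 2.14 CPM. It was low in HFD metformin 1, at 1.23 CPM, against 2.32, 2.33 and 2.47 CPM. Timmdc1 was high in NCD metformin 2, at 8.63 CPM, against 7.78, 7.87 and 7.74 CPM. Pam16, a motor subunit, was low in HFD control 3, at 2.31 CPM, against 3.59, 3.75 and 3.68 CPM. Timm17b was high in HFD control 4, at 10.3 CPM, against 8.42, 8.38 and 8.29 CPM. Tomm70a was high in HFD control 1, at 17.1 CPM, against 14.8, 14.8 and 14.6 CPM.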

How the results depend on the processing

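For the 19 called results of the members, 266 values under an alternative kept their direction and side of the threshold, 178 kept the direction and were no longer called, and none reversed. Of the 226 member results not called, 85 changed sign under an alternative or more, among them Tomm70a (-0.04 to 0.19) and Timm17b (-0.05 to 0.12) with metformin on NCD and Hspa9 on HFD without metformin (-0.22 to 0.05). With library size only, 4 members were called with metformin on NCD, 4 averaged over diets, 7 lower on HFD with metformin and 15 lower on HFD averaged over treatments. Averaged over diets, the count was 5 with no filter and 7 with the length and GC trend removed. DESeq2 called 1 with metformin on HFD, Samm50, where it called 158 of all genes. Leaving out 1 library gave 0 to 10 with metformin on NCD, 4 to 13 averaged over diets, 0 to 1 on HFD, and 0 to 1 for HFD with metformin and for HFD averaged over treatments. Over all genes, calls then ranged from 180 to 1461 with metformin on NCD, 711 to 1505 averaged over diets and 3 to 44 on HFD. They ranged from 3 to 384 for HFD with metformin and from 28 to 180 for HFD averaged over treatments. In other alternatives these counts stayed within 1.5 times. The causes were not tested. Scaled from CPM, Tomm5 was at 65.1 per length. Only the 4 simple contrasts could be fitted with only the groups compared.

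No paired analysis was possible because the labels number no replicates, so the numbers here follow accession order. Counts of under 10 in the shallowest library limit Timm9, Timm10, Timm8a1, Tomm5 and Tomm7. A p that missed the threshold does not show equal levels.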
